A study of Mus musculus with 8 samples.

Results

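Clade B serpins are the intracellular branch of the serpin family, and the mouse genes described here are relatives of hurpin, the human cathepsin inhibitor SERPINB13 that the transgenic mice express. They were measured in belly skin of mice aged 8 months, all from 1 experiment on expression arrays. The members were the probe sets annotated to exactly 1 of 10 gene symbols: Serpinb1a, Serpinb2, Serpinb3a, Serpinb5, Serpinb6a, Serpinb6b, Serpinb8, Serpinb9, Serpinb11 and Serpinb12. This gave 17 probe sets, of 45037 probe sets that were not array controls and 18193 genes with a probe set of 1 symbol. A single probe set stood for each of 5 genes, 2 for each of 4 genes, and 4 for Serpinb5. The rule used the annotation and no measured value.

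The transgenic group held 4 hurpin transgenic mice, the females 7 and 84 and the males 11 and 17. The wildtype group held 3 mice, the males 26 and 28 and the female 29, whose RNA was on 2 arrays. These arrays were averaged, so each animal counted once. The strain, the promoter that drives the transgene and the number of founder lines are not given in the sources used here. Serpinb13, the mouse counterpart of hurpin, had no probe set of its own and the human transgene was not measured, so the transgenic label was not checked on its own gene. The sexes matched their labels: Xist had log2 values of 12.84 to 13.16 in females and 6.81 to 7.10 in males.

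A serpin presents a reactive loop that a protease cuts as if it were a substrate. In an inhibitory serpin the cut loop folds into the body of the protein and traps the protease. Clade B members lack a classical signal peptide and act mostly inside cells, where several of them inhibit granzymes, neutrophil serine proteases or lysosomal cathepsins that leak into the cytosol. Hurpin inhibits cathepsin L and is made by keratinocytes, and several of its relatives are made in stratified epithelium.

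All values are signal intensities on a log2 scale after adding 21.8, the 20th percentile of all values, and a difference is transgenic minus wildtype on that scale. The trimmed mean of every array was 500.003, so the arrays had been scaled to the same level. Probe sets whose mean over the animals was below 6.45, the 40th percentile, were not tested, which left 27022 probe sets over all genes. Of the members, 16 of 17 passed, and the second probe set of Serpinb12 did not. Levels of different probe sets are not set against each other, because each probe set binds its target with its own strength.

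Markers of skin were present. All 8 measured keratinocyte genes of a list of 9 were above the filter, with mean log2 values of 12.07 to 15.06. The tissue also held RNA of hair shaft, muscle, fibroblasts, adipocytes, mast cells and macrophages, whose measured markers were all above the filter. Neutrophil markers were above it for 4 of 6 measured genes. The mean of the hair shaft list differed most between animals, from 6.67 in wildtype 26 and 9.90 in transgenic 17 to between 12.71 and 14.28 in the other animals. RNA quality was read from Gapdh, whose 3' probe set exceeded the 5' one by a factor of 13.8 for transgenic 7, 17.2 for transgenic 84 and 4.68 for transgenic 17. The factor was 1.45 for transgenic 11 and 0.927 to 1.41 for the arrays of wildtype animals. As log2, transgenic animals had 2.67 ± 1.64 (SD, n = 4) and wildtype animals 0.15 ± 0.085 (SD, n = 3). An exact 2-sided permutation test over the 35 splits of 7 animals gave a p of 0.0571. Every transgenic array had a higher factor than any wildtype array, so group and RNA quality are largely joined. Fits below that include the Gapdh ratio cannot fully separate them.

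The genes lie in 2 clusters. On chromosome 1, RefSeq places 12 clade B genes, of which 6 are members, in the order Serpinb5, Serpinb12, Serpinb3a, Serpinb11, Serpinb2 and Serpinb8, with Serpinb13 next to Serpinb12. Chromosome 13 holds 16 clade B genes, of which Serpinb1a, Serpinb6b, Serpinb9 and Serpinb6a are members. RefSeq promoter sequences on GRCm38.p6 were available for 9 of the 10 members, 12 promoters in all. In the 250 bases before the start, both strands were searched for TGANTCA, where N is any base, a pattern that includes the consensus of the AP-1 factors, and for TATAAA, the TATA box. Where 2 starts of a gene lie close together their windows overlap.

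The promoters shown are those of 5 chromosome 1 members that hold TGANTCA, since these neighbouring genes share the letters and their values can be compared below. Each is written 5′ to 3′ and lies on the + strand, with matches to TGANTCA or TATAAA in capitals. Serpinb5 is at chr1:106860925-106861174, Serpinb12 at chr1:106934199-106934448, Serpinb11 at chr1:107362064-107362313, Serpinb2 at chr1:107511173-107511422 and Serpinb8 at chr1:107589756-107590005.
Serpinb5: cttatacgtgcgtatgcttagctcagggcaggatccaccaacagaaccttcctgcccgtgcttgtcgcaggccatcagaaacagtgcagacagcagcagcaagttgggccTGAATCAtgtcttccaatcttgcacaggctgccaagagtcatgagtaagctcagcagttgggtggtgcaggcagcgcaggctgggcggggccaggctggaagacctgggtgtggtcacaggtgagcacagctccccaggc
Serpinb12: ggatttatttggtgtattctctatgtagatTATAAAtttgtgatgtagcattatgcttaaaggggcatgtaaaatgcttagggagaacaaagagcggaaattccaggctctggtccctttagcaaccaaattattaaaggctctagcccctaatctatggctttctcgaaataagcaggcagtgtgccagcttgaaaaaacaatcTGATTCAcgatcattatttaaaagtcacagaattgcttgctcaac
Serpinb11: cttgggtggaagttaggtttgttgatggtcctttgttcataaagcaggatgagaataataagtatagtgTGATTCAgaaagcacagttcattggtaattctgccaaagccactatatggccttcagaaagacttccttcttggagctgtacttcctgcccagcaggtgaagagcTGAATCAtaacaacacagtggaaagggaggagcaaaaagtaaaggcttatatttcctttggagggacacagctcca
Serpinb2: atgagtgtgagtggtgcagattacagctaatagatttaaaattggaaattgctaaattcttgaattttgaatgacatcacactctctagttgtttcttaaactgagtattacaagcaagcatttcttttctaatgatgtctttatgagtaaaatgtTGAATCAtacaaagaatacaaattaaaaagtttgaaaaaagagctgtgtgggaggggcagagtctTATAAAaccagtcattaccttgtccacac
Serpinb8: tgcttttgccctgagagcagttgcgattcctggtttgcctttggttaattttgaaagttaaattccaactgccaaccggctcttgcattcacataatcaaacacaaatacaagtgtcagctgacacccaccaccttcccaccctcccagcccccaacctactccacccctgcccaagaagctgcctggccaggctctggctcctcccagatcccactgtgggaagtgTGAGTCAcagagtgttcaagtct

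TGANTCA was found in 6 of the 12 promoters, which belong to these 5 genes, against 6.75% of 32851 RefSeq promoters of the same length. In Serpinb8 the match is 23 bases before the start and reads TGAGTCA, an AP-1 consensus form. In the others the middle base is A or T, which is not the consensus. Serpinb11 has a pair of matches, 181 and 76 bases before its start. None was found in the promoters of Serpinb3a, Serpinb6a, Serpinb6b or Serpinb9. TATAAA was found in 5 promoters of 3 genes, Serpinb2, Serpinb3a and Serpinb12, against 12.4% of all promoters. In Serpinb12 it lies 220 and 201 bases before the starts. The 2 Serpinb2 promoters overlap and hold the same TGANTCA site and the same TATAAA site, so each site is counted in both. GGGCGG, the Sp1 site, was found in 3 promoters, of Serpinb5, Serpinb6a and Serpinb6b, against 32.7%. TTCNNNGAA, the site of STAT factors, was found in 2 promoters, of Serpinb2 and Serpinb6a, against 7.02%. These are matches of letters and carry no measurement of binding.

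The first question was whether the mouse relatives differ in level between hurpin transgenic and wildtype skin. No member probe set passed limma's test after Benjamini-Hochberg adjustment over all 27022 probe sets (0 of 16, with 0.0148% of all tested probe sets called). At an unadjusted p under 0.05 the count was also 0 of 16, against 11.7% of all. In no member were the animals of the groups separated (0 of 16, against 11.3% of all). The difference was above 0 in 11 of 16 and below 0 in 5, against 50.2% above 0 among all. The median difference was 0.087, against 0.0012 over all tested probe sets, and the median size without its sign was 0.23 in both. Adjusted p ran from 0.450 to 0.977, and exact permutation p for the single members from 0.114 to 0.943.

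**Figure D1:**
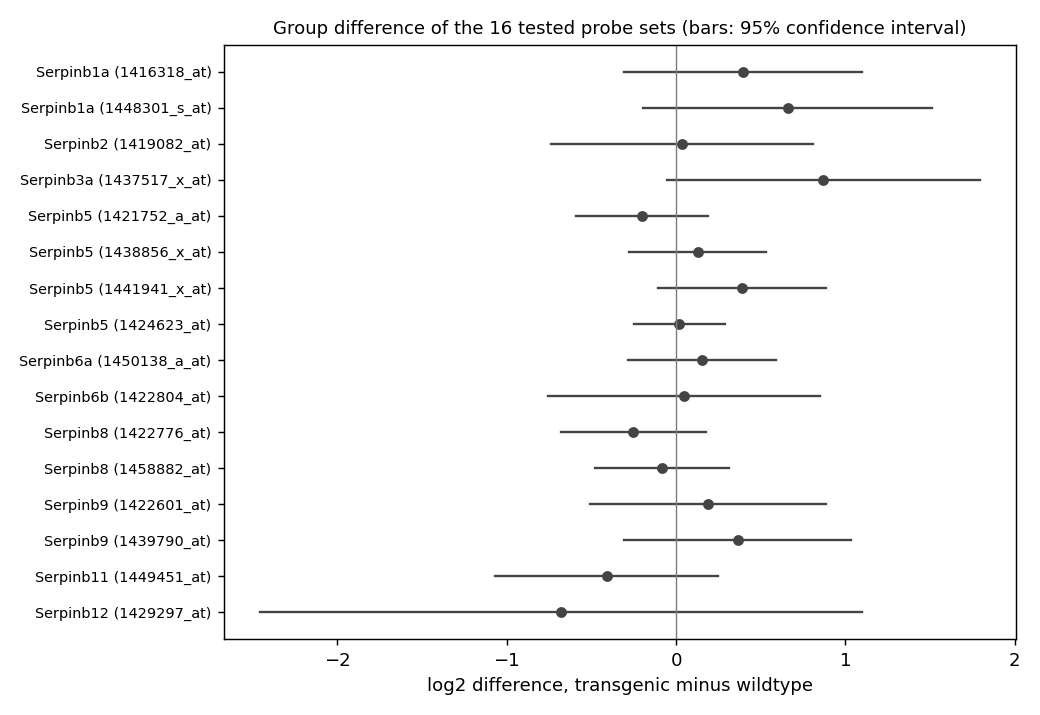
Log2 difference between transgenic and wildtype animals for the 16 tested probe sets (horizontal axis), 1 row per probe set; points are limma estimates and bars 95% confidence intervals. Every interval crosses 0, from the narrowest in Serpinb5 (1424623_at) to the widest in Serpinb12, which reaches from −2.46 to 1.10.

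The absence of a call bounds the differences unequally. In 10 of the 16 probe sets the 95% confidence interval lay within 1 on the log2 scale in either direction, and in 6 it reached 1 or beyond. The widest interval spanned 3.56 and the narrowest 0.54. In bulk skin, fewer cells of a type and less RNA per cell cannot be told apart, and this holds for each member.

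**Figure D2:**
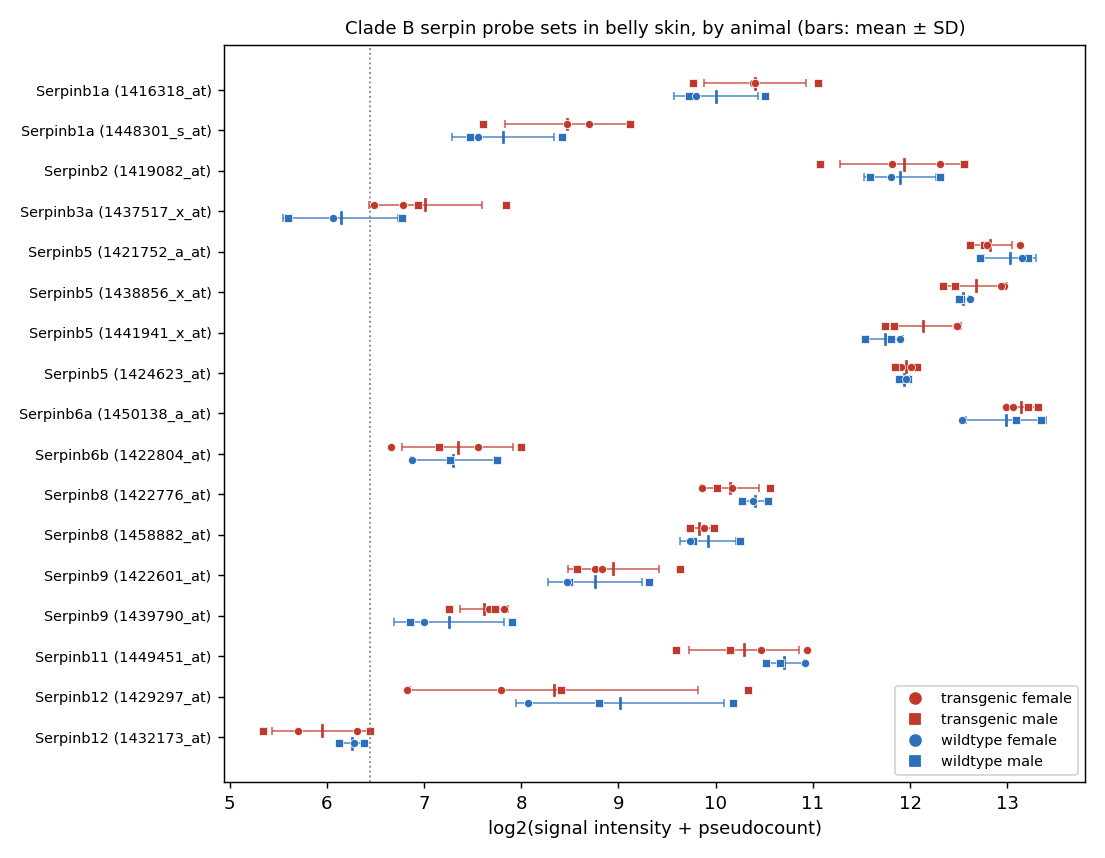
Log2 intensity plus 21.8 of each member probe set in each animal, with transgenic above wildtype in each row, circles for females, squares for males and bars for the mean ± SD of each group; the dotted line is the filter at 6.45. The groups overlap in all 17 probe sets.

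Among the chromosome 1 members, Serpinb5 encodes maspin, a serpin of epithelial cells that is not known to inhibit proteases by the serpin mechanism. Its probe set 1421752_a_at read 13.13, 12.61, 12.77 and 12.79 in transgenic 7, 11, 17 and 84, and 12.72, 13.21 and 13.15 in wildtype 26, 28 and 29. The highest value was in a wildtype and the lowest in a transgenic animal, with overlap between the groups. The difference was −0.20 (SE 0.172, adjusted p = 0.671, limma). The probe set 1424623_at varied least of all members: 11.91, 11.85, 12.07 and 12.01 in transgenic and 11.98, 11.88 and 11.96 in wildtype animals, in the same animal order. Its difference was 0.018 with a 95% confidence interval of −0.25 to 0.29, the tightest bound in the family.

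The remaining Serpinb5 probe sets, whose suffix _x_at marks probes that may also match related sequences, had the opposite sign to 1421752_a_at. Probe set 1438856_x_at read 12.96, 12.34, 12.46 and 12.94 in transgenic 7, 11, 17 and 84 and 12.52, 12.51 and 12.62 in wildtype animals. Probe set 1441941_x_at read 12.47, 11.83, 11.74 and 12.48 against 11.54, 11.80 and 11.89. In both, the transgenic females 7 and 84 were the highest animals. The transgenic males lay below all wildtype animals for the first and within their range for the second. The differences were 0.13 (SE 0.179, adjusted p = 0.809) and 0.39 (SE 0.219, adjusted p = 0.514) by limma. A fit that also held the Gapdh ratio gave −0.35 and −0.14. The 4 probe sets of Serpinb5 thus did not share a direction.

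Serpinb12 is an inhibitor of trypsin-like proteases that is made in epithelia. Its probe set 1429297_at differed more between animals than any other member: 6.82, 8.41, 10.33 and 7.79 in transgenic 7, 11, 17 and 84, and 10.18, 8.80 and 8.07 in wildtype 26, 28 and 29. A male of each group was high and the transgenic females were lowest, and the range over animals was 3.51. The means were 8.34 ± 1.48 (SD, n = 4) and 9.02 ± 1.07 (SD, n = 3), a difference of −0.68 (SE 0.783, adjusted p = 0.763, limma). Without wildtype 26 the difference was −0.095, without transgenic 7 it was −0.17, without transgenic 17 it was −1.34 and without wildtype 29 it was −1.15. Without both transgenic females it was 0.35. The second Serpinb12 probe set, 1432173_at, was below the filter, with values of 5.35 to 6.44 over all animals, and was not tested.

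Serpinb3a is a mouse relative of the human squamous cell carcinoma antigens and inhibits both serine and cysteine proteases. It read 6.78, 6.94, 7.84 and 6.49 in transgenic 7, 11, 17 and 84, and 6.77, 5.60 and 6.06 in wildtype 26, 28 and 29. Transgenic 17 was highest and wildtype 28 lowest. The groups overlapped because wildtype 26 lay above transgenic 84. The difference of 0.87 (SE 0.408, 95% confidence interval −0.06 to 1.80) was the largest among the members. It had an unadjusted p of 0.0626 and an adjusted p of 0.450 by limma, and an exact permutation p of 0.114. The wildtype mean of 6.14 was below the filter of 6.45 and the transgenic mean was 7.01. The probe set was thus tested only because of its transgenic values, and the size of its difference is a description. At this level the added constant matters: the difference was 1.07 with a constant of 5.45 and 0.51 with a constant of 87.2. The difference ranged from 0.59 without transgenic 17 to 1.18 without wildtype 26. The _x_at suffix applies here too, and Serpinb3b, Serpinb3c and Serpinb3d lie next to Serpinb3a.

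Serpinb11 is a clade B member whose mouse form inhibits trypsin. It read 10.94, 9.60, 10.15 and 10.46 in transgenic 7, 11, 17 and 84, and 10.66, 10.51 and 10.92 in wildtype 26, 28 and 29. The transgenic males were below every wildtype animal, transgenic 84 was just below them, and transgenic 7 was the highest of all. The difference was −0.41 (SE 0.290, adjusted p = 0.600, limma). Adding the Gapdh ratio, which is largely joined with group, gave −1.21, with an unadjusted p of 0.00263 and an adjusted p of 0.99999. Leaving out transgenic 7 and 84 gave −0.83, with an unadjusted p of 0.0117 and an adjusted p of 0.910. Leaving out transgenic 11 gave −0.18 and leaving out transgenic 7 gave −0.63.

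Serpinb2 is plasminogen activator inhibitor 2, which inhibits urokinase. It read 11.81, 11.07, 12.56 and 12.31 in transgenic 7, 11, 17 and 84, and 12.31, 11.59 and 11.81 in wildtype 26, 28 and 29. Transgenic animals were both the lowest and the highest, and the means were 11.94 ± 0.66 (SD, n = 4) and 11.90 ± 0.37 (SD, n = 3). The difference of 0.036 (SE 0.341) had an adjusted p of 0.977 by limma, and its 95% confidence interval was −0.74 to 0.81.

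Serpinb8 inhibits furin in biochemical assays. Its probe set 1422776_at read 9.86, 10.01, 10.56 and 10.17 in transgenic 7, 11, 17 and 84, and 10.54, 10.27 and 10.39 in wildtype animals. All transgenic animals but 17 lay below all wildtype animals, and 17 lay above them. The difference was −0.25 (SE 0.189, adjusted p = 0.622, limma). The second probe set, 1458882_at, read 9.73, 9.74, 9.98 and 9.88 against 10.25, 9.77 and 9.74, with a difference of −0.086 (SE 0.174, adjusted p = 0.874). Without wildtype 26 this difference was 0.079.

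Among the chromosome 13 members, Serpinb1a is a mouse counterpart of the human leukocyte elastase inhibitor, which acts on neutrophil serine proteases. Its probe set 1416318_at read 10.39, 9.76, 11.06 and 10.41 in transgenic 7, 11, 17 and 84, and 10.51, 9.72 and 9.80 in wildtype 26, 28 and 29. Probe set 1448301_s_at read 8.47, 7.61, 9.12 and 8.69 against 8.42, 7.47 and 7.56. In both, transgenic 11 lay with wildtype 28 and 29 at the low end, and wildtype 26 lay close to transgenic 7 and 84. The differences were 0.40 (SE 0.310, adjusted p = 0.639) and 0.66 (SE 0.376, adjusted p = 0.518) by limma. Leaving out 1 animal gave 0.18 (without transgenic 17) to 0.64 (without wildtype 26) for the first, and 0.44 (without transgenic 17) to 0.96 (without wildtype 26) for the second. The lowest adjusted p for the second was 0.171, without transgenic 11. A fit that included the Gapdh ratio gave 0.051 and 0.059. The arrays of wildtype 29 read 7.08 and 8.04 for this probe set, which is a gap of 0.96. Over all 16 members the gap between these arrays ran from 0.019 to 0.96 with a median of 0.11.

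Serpinb9 inhibits granzyme B and protects cells that carry or meet that protease. Probe set 1422601_at read 8.76, 8.57, 9.63 and 8.83 in transgenic 7, 11, 17 and 84, and 9.32, 8.49 and 8.48 in wildtype 26, 28 and 29, with a difference of 0.19 (SE 0.307, adjusted p = 0.841, limma). Probe set 1439790_at read 7.67, 7.26, 7.73 and 7.82 against 7.91, 6.86 and 7.00, with a difference of 0.36 (SE 0.295, adjusted p = 0.654). The second difference was 0.16 without wildtype 28, 0.69 without wildtype 26 and 0.015 when the Gapdh ratio was included. The first was −0.040 without transgenic 17 and 0.47 without wildtype 26. In both, wildtype 28 and 29 were the lowest animals while wildtype 26 was the highest or second only to transgenic 17.

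Serpinb6a inhibits trypsin-like proteases and cathepsin G, and Serpinb6b is its paralogue. Serpinb6a read 12.99, 13.21, 13.32 and 13.06 in transgenic 7, 11, 17 and 84, and 13.35, 13.09 and 12.54 in wildtype 26, 28 and 29. Wildtype animals were both the highest and the lowest. The difference was 0.15 (SE 0.192, adjusted p = 0.779, limma), and without wildtype 29 it was −0.071. Serpinb6b read 6.66, 7.16, 8.00 and 7.56 against 7.75, 7.26 and 6.88, and its group means differed by 0.046 (SE 0.354, adjusted p = 0.971).

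The members also differed between animals within each group. The median range over the 7 animals was 1.10 in the members and 0.93 over all tested probe sets. Transgenic 17 was the highest animal in 9 of 16 member probe sets, against 14.2% of all tested probe sets. Neither transgenic 17 nor transgenic 84 was the lowest animal in any tested member probe set. Transgenic 17 and wildtype 26, the males with the low hair shaft values, were the highest pair of animals in 8 of 16 members, against 11.8% of all. These 8 probe sets stand for 7 of the 10 genes: Serpinb1a (1416318_at), Serpinb2, Serpinb6a, Serpinb6b, Serpinb8 (both), Serpinb9 (1422601_at) and Serpinb12. The pair was chosen after the values were seen, so the counts are a description.

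The mean over the 16 probe sets was 10.58 in transgenic 17 and 10.42 in wildtype 26, and 9.87 to 10.23 in the other animals. The group means of this average differed by 0.10, and by 0.015 when only the most abundant probe set of each gene was averaged. The pair also had the highest means of 4 marker lists. These were 13.58 in transgenic 17 and 13.55 in wildtype 26 for keratinocytes, 11.76 and 12.11 for macrophages, 8.22 and 8.26 for T or natural killer cells, and 8.56 and 8.96 for endothelium. Transgenic 17 was highest for mast cells, at 9.89, and wildtype 26 for fibroblasts, at 14.55. The part of hair shaft RNA, of these cell types and of RNA quality in the pattern was not tested. Of the 5 genes whose promoters are shown, Serpinb2, Serpinb8 and Serpinb12 had the pair on top, and Serpinb5 (3 of its 4 probe sets) and Serpinb11 did not have either of these animals on top. Among the genes with no TGANTCA match, Serpinb6a, Serpinb6b and Serpinb9 (1422601_at) also had the pair on top, and Serpinb3a did not. The pattern was thus seen with and without the match.

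**Figure D3:**
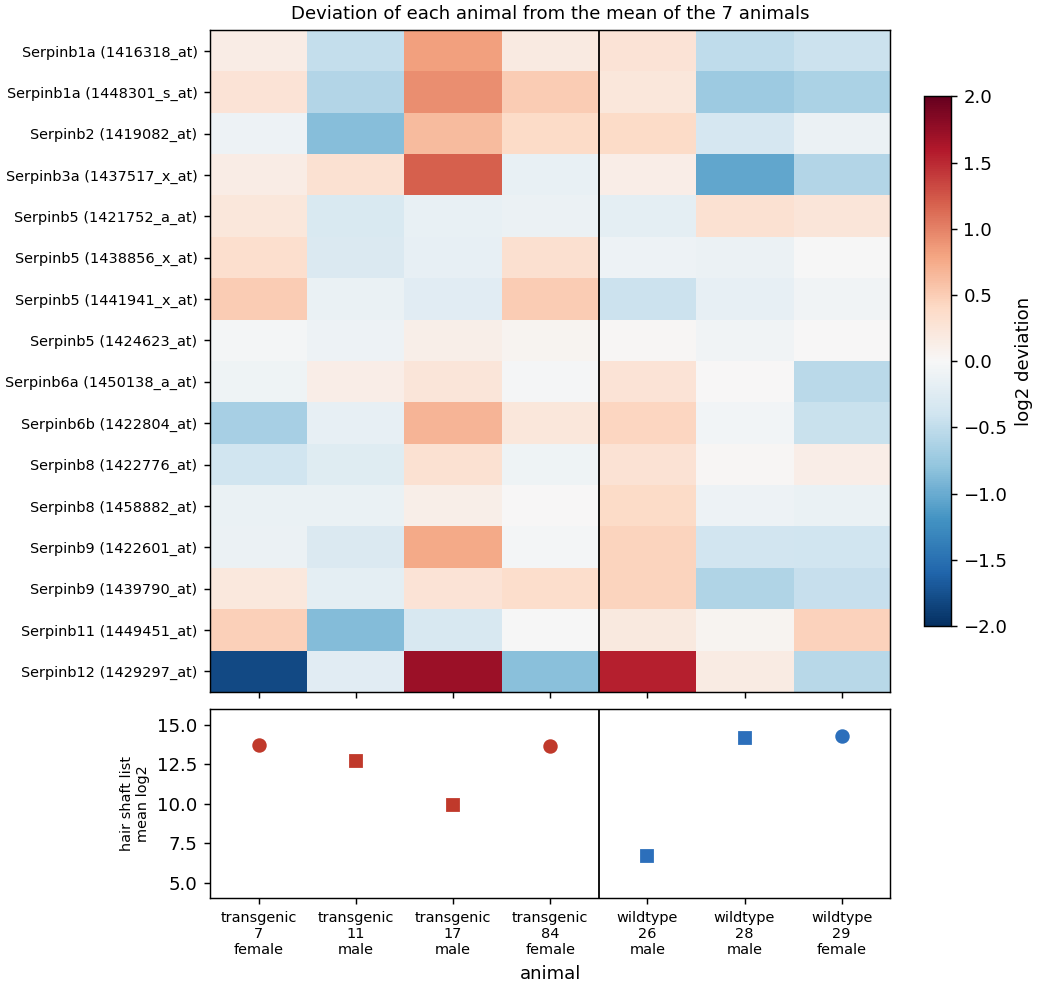
Upper panel: log2 deviation of each animal (columns) from the mean of the 7 animals for each tested member probe set (rows), red above and blue below. Lower panel: mean log2 of the hair shaft list in the same animals. Transgenic 17 and wildtype 26 are red in most rows and have hair shaft means of 9.90 and 6.67.

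Both groups held females and males, and the sexes were compared after the values had been seen, with group kept in the model. No member passed limma's test after adjustment (0 of 16, against 0.226% of all tested probe sets). At an unadjusted p under 0.05 there were 5 of 16, against 10.9% of all. Females and males did not overlap in 4 of 16, against 9.83% of all, with females lower in 2 (5.66% of all) and higher in 2 (4.16%). The 2 with higher females are both _x_at probe sets of Serpinb5. Females are 3 animals, of which transgenic 7 and 84 have the highest Gapdh ratios, so sex and RNA quality are largely joined among the transgenic animals.

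Serpinb12 was the member with the widest gap between the sexes, 7.56 ± 0.66 (SD, n = 3) in females and 9.43 ± 0.97 (SD, n = 4) in males. The fitted difference, female minus male, was −1.81 (SE 0.526, 95% confidence interval −3.01 to −0.60, adjusted p = 0.324, limma). The lowest male, transgenic 11 at 8.41, lay above the highest female, wildtype 29 at 8.07. The males with low hair shaft values, 17 and 26, were the highest. Males 11 and 28 had hair shaft means of 12.71 and 14.19. Including the hair shaft mean in the fit gave −1.13, and including the Gapdh ratio gave −2.30. Without transgenic 7 and 84, which left wildtype 29 as the only female, it was −1.42.

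Serpinb6a read 12.86 ± 0.28 (SD, n = 3) in females and 13.24 ± 0.12 (SD, n = 4) in males, a fitted difference of −0.41 (SE 0.139, adjusted p = 0.372, limma). It was −0.24 without wildtype 29 and −0.63 when the Gapdh ratio was included. With wildtype 29 as the only female, without transgenic 7 and 84, it was −0.68. Both _x_at probe sets of Serpinb5 were higher in all females, with fitted differences of 0.50 (SE 0.146, adjusted p = 0.324) and 0.37 (SE 0.133, adjusted p = 0.390). Without transgenic 7 and 84, again with wildtype 29 as the only female, these were 0.22 and 0.10. With the Gapdh ratio included the second was 0.16. The other Serpinb5 probe sets, 1421752_a_at and 1424623_at, had overlapping sexes. Their fitted differences were 0.24 (adjusted p = 0.597) and 0.012 (adjusted p = 0.977) by limma. Serpinb11 had a fitted difference of 0.63 (SE 0.208, adjusted p = 0.369) with overlapping sexes, and 0.28 once the Gapdh ratio was included. The interaction of group and sex gave no member an unadjusted p under 0.05 (0 of 16, against 2.86% of all), and the lowest adjusted p of the members was 0.9998, with no probe set called (0% of all).

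**Figure D4:**
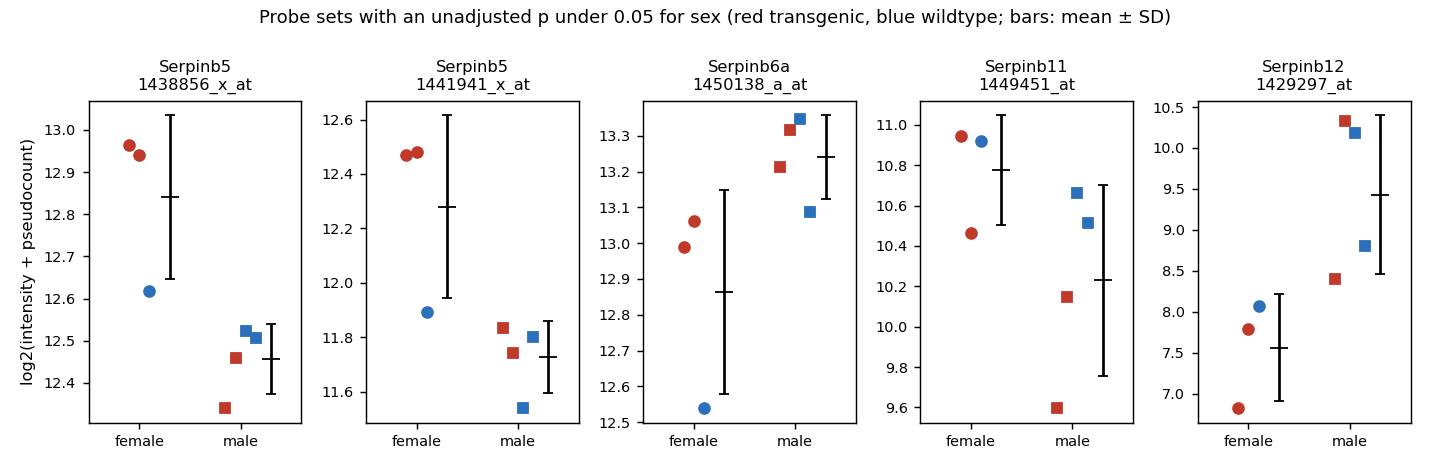
Log2 values of the members with an unadjusted p under 0.05 between the sexes, per animal, females and males side by side, with colours by group and bars for the mean ± SD of each sex; each panel has its own axis range. In Serpinb12 all females lie at or below 8.07 and all males at or above 8.41, and in Serpinb11 the sexes overlap.

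The other clade B genes were read from a list of 19, of which 8 had a probe set of 1 symbol and 4 were tested. None was called between the groups and none had an unadjusted p under 0.05, with all 4 above 0 and a median difference of 0.45. Serpinb7, a serpin of stratified epithelium, had the pattern of the pair of animals described above: 12.76 in transgenic 17 and 12.74 in wildtype 26, and 11.27 to 12.28 in the others. Its group difference was 0.43 (SE 0.364, adjusted p = 0.664, limma). Serpinb6c (1451594_s_at) and Serpinb6e (1441918_x_at), neighbours of Serpinb6a, differed between the sexes in opposite directions without passing the adjusted test. The _x_at suffix of the Serpinb6e probe set marks probes that may also match related sequences. Serpinb6c read 9.59 ± 0.44 (SD, n = 3) in females and 11.67 ± 0.82 (SD, n = 4) in males (adjusted p = 0.143, limma). Serpinb6e read 12.31 ± 0.52 (SD, n = 3) in females and 10.11 ± 0.55 (SD, n = 4) in males (adjusted p = 0.0525, limma).

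Of 18 proteases that clade B serpins inhibit, all had a probe set and 12 were tested. None was called between the groups, 1 of 12 had an unadjusted p under 0.05 (against 11.7% of all tested probe sets), and 9 of the 12 were above 0 with a median difference of 0.16. It was Furin, at 9.78 ± 0.03 (SD, n = 4) in transgenic skin against 9.45 ± 0.09 (SD, n = 3) in wildtype skin (unadjusted p = 0.0395, adjusted p = 0.409, limma). Ctsl, encoding the cathepsin that hurpin inhibits, had a difference of −0.05. Ctsk, the collagen-degrading cathepsin K, which hurpin also inhibits, was the protease called between the sexes: 11.39 ± 0.39 (SD, n = 3) in females and 14.01 ± 0.28 (SD, n = 4) in males (adjusted p = 0.00407, limma). Females lay at 11.01 to 11.79 and males at 13.80 to 14.41. Among the fibroblast markers, Col1a1 (1423669_at) was also lower in females, at 13.78 ± 0.13 (SD, n = 3) against 15.00 ± 0.10 (SD, n = 4) in males (adjusted p = 0.00735, limma). The most abundant Col1a2 probe set, 1450857_a_at, was lower in females without a call, with a fitted difference of −0.56 (adjusted p = 0.181). Its probe set 1423110_at was called, at 14.20 ± 0.24 in females against 15.25 ± 0.06 in males (adjusted p = 0.0217). A second Col1a1 probe set, 1455494_at, had a fitted difference of −1.32 (adjusted p = 0.0320). The most abundant probe sets of Col3a1, Dcn and Lum were lower in females without a call (adjusted p = 0.327, 0.504 and 0.350, limma). The most abundant Pdgfra probe set, 1421917_at, went the other way, at 11.69 ± 0.42 in females against 11.42 ± 0.21 in males (adjusted p = 0.696). Its probe sets 1438946_at and 1421916_at were lower in females without a call. Their fitted differences were −0.40 and −0.52 (adjusted p = 0.448 and 0.438, limma). The part of fibroblasts in the Ctsk difference was not tested. The settings that lost the call included those without wildtype 29 (adjusted p = 0.0570) and with the Gapdh ratio (adjusted p = 0.0833), by limma. Differences were −2.36 to −2.82 over 23 alternative settings. The setting without transgenic 7 and 84 left wildtype 29 as the only female, so no p is given for it.

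Serpins of other clades, which are mostly secreted, made a list of 19 genes, of which 8 were tested. None was called between the groups or had an unadjusted p under 0.05, and the median difference was −0.11 with 4 above 0. Of the plasminogen activation genes, a list that holds Serpinb2 itself, 3 of 7 were tested, none was called or had an unadjusted p under 0.05, and the median difference was 0.036.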

How the data were processed

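Belly skin RNA of 7 mice was hybridised to 8 mouse expression arrays. The authors deposited linear signal intensity from MAS5, per the submitters' processing notes, and each array had the same mean after trimming 2% at each end. Detection calls were not used here. Probe sets were named from the array annotation, which can be old. Here log2 of intensity plus 21.8 was taken, the arrays of wildtype 29 were averaged, and transgenic was tested against wildtype by limma 3.58.1 under R 4.3.3 (no covariate, eBayes with trend, 2-sided, Benjamini-Hochberg over 27022 probe sets, threshold 0.05). Single members were also tested with an exact permutation test of the animals. The code was tested on simulated data. Every member is named. Members, lists and tests were chosen with earlier results of these data known, and the sex comparison and 3 alternatives were added after the values were seen. p-values measure the spread between these animals. The number of arrays and animals limits the precision. Genes of the other lists were named where they had a result by sex or group or act on a member. Protein sequences were not used here.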

Additional observations from a re-analysis of the deposited data

How the results depend on the processing

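No member was called in those of the 23 alternative settings of the group comparison in which it was tested, and the lowest adjusted p was 0.171. Of the alternative values, 335 kept their direction and 24 reversed it, all uncalled. With quantile normalization the difference was −0.021 in Serpinb2 and −0.037 in Serpinb5 (1424623_at), and with cyclic loess −0.028 and −0.048. Including the Gapdh ratio gave −0.59 in Serpinb2, −0.35, −0.14 and −0.049 in Serpinb5 (1438856_x_at, 1441941_x_at and 1424623_at) and 0.41 in Serpinb12. Without transgenic 7 and 84 it was −0.086 in Serpinb2, −0.15 in Serpinb5 (1438856_x_at) and 0.35 in Serpinb12. Leaving out 1 animal at a time gave −0.17 to 0.33 in Serpinb2, −0.019 to 0.055 in Serpinb5 (1424623_at), −0.071 to 0.33 in Serpinb6a, −0.17 to 0.27 in Serpinb6b, −0.18 to 0.079 in Serpinb8 (1458882_at) and −0.040 to 0.47 in Serpinb9 (1422601_at). The cause of these reversals was not tested. Over all probe sets, 4 were called between the groups. The count was 10 with 4 times the constant, 2 with a 60th percentile filter, 11 with sex in the fit, 9 with the second array of wildtype 29, 44 with its arrays taken as separate samples and 26 with the hair shaft mean in the fit. It was 0 in limma with the Gapdh ratio (unadjusted p under 0.05 in 405 higher and 446 lower) and 0 with 1 probe set per gene (608 and 622). Leaving out 1 animal gave 0 (without wildtype 28, unadjusted 418 and 1234) to 280 (without transgenic 11). Between the sexes 61 were called: 26 without a variance trend, 12 with the Gapdh ratio, 164 with the arrays separate, 36 with 1 probe set per gene, 8 without transgenic 7 and 84, and 16 (without transgenic 84) to 144 (without wildtype 28) leaving out 1 animal. None of the 16 members was called by sex in the settings in which it was tested, and the lowest adjusted p was 0.126. No paired analysis was possible because the animal numbers are not shared between the groups. Signal intensity carries no read depth, and the number of animals is among the limits on precision.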
